A study of Mus musculus with 18 samples.

Results

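The transcripts followed here encode 4 ligands and 2 receptors of the platelet-derived growth factor (PDGF) family, Pdgfa, Pdgfb, Pdgfc, Pdgfd, Pdgfra and Pdgfrb, and 2 ligands and 2 receptors of the fibroblast growth factor (FGF) family, Fgf2, Fgf7, Fgfr1 and Fgfr2. They were taken by gene symbol and not by their values, and all 10 were found among the 27179 genes of the table. RNA was sequenced from bone marrow mesenchymal stem cells (MSCs) of male C57BL6 mice, primary cells grown in alpha-MEM with fetal bovine serum. Young MSCs came from donors aged 6 weeks and Old MSCs from donors aged 18 to 24 months, neither of them treated. Rejuvenated Old MSCs were 100000 old cells per well kept for 7 days on the other side of a Transwell membrane from young MSCs, so that soluble factors could pass and cells could not. Each group had 6 libraries, labelled as biological replicates. Nothing says which of them shared an animal or a culture, so the p-values measure the spread between these libraries. No old cells cultured opposite other old cells were analysed here, and an effect of the age of the neighbouring cells cannot be told apart from an effect of a neighbouring cell layer as such. The expansion medium that the study's methods describe held basic FGF, the protein product of the Fgf2 gene, with heparin. The labels do not list either one, and the transcripts measured here say nothing of added protein.

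PDGF ligands are secreted dimers that bind receptor tyrosine kinases on mesenchymal cells. Pdgfra binds the A, B and C chains, while Pdgfrb binds mainly the B and D chains, and both receptors drive migration and proliferation of fibroblasts, MSCs and pericytes. Fgf2 acts on Fgfr1 and on a splice form of Fgfr2 found in mesenchymal cells, whereas Fgf7 (keratinocyte growth factor) is made by mesenchyme and acts on the Fgfr2 splice form of epithelia. FGF ligands bind heparan sulfate, and both families signal through the Ras-ERK and PI3K-Akt pathways, whose activity induces its own inhibitors, among them the Sprouty proteins.

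The libraries held 22936251 to 29559194 reads on genes, 22936251 to 25648769 of them in Young and 24965971 to 29559194 in Old. Values are normalized counts, the reads of a gene divided by a size factor for its library, and a gene was tested when its mean over the 18 libraries reached 10, which 14353 genes and all 10 members did. Ly6a (Sca-1) and Cd44, the surface proteins by which these MSCs are recognised, were present in every library, Ly6a at means of 25100 (Young), 6135 (Old) and 12900 (Rejuvenated Old) and Cd44 at means of 2137, 2954 and 2399. The MSC surface marker Thy1 had a median of 192 in Young and at most 3 reads in every Old library. In Rejuvenated Old its median was 0.944 and its highest value 21.6. Other markers went the other way: of 7 MSC surface markers tested, 3 were higher and 4 lower in Young. Thy1, among the higher ones, reached the filter mean of 10 only through Young. Among the lower ones, Eng and Vcam1 had means of 163 and 928 in Young and 7340 and 6408 in Old. The Old libraries also held RNA of macrophage genes: the summed level of 10 macrophage markers ran from 948 to 1068 in Young, from 13161 to 16398 in Old and from 13001 to 15877 in Rejuvenated Old. Most of the sum in Old and Rejuvenated Old was Lyz2, at means of 10154 and 9769, against 173 in Young. In bulk RNA, fewer cells of a type cannot be told apart from less RNA per cell.

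RefSeq sequences of the bases just before a transcript start were at hand for 7 of the 10 members. The 250 bases before the start are shown for the 3 of these that differed most between Young and Old, Pdgfd and Fgf7, which were higher in Old, and Pdgfra, which was higher in Young. All 3 lie on the plus strand of GRCm38.p6 (mm10) and read 5′ to 3′ toward the start. The RefSeq gene of Pdgfd begins at 6168363 and that of Pdgfra at 75151322. Part of the Pdgfd window and the whole Pdgfra window thus lie inside the annotated gene, before a later transcript start. Capitals mark TATAAA (the TATA box) and CCAAT (the CCAAT box), searched on both strands together with GGGCGG (the GC box), TGANTCA (an AP-1 site) and GGAATG (a TEAD site), none of which overlapped another in these windows.
Pdgfd, chr9:6168236-6168485: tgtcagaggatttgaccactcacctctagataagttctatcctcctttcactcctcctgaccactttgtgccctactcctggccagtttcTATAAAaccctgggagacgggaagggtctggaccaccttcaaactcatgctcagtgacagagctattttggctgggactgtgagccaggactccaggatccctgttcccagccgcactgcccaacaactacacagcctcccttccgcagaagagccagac
Fgf7, chr2:126034408-126034657: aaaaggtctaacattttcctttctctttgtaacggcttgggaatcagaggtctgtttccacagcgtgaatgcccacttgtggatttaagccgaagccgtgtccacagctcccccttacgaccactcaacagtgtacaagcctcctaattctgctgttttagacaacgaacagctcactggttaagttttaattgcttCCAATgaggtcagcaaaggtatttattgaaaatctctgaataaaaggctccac
Pdgfra, chr5:75152001-75152250: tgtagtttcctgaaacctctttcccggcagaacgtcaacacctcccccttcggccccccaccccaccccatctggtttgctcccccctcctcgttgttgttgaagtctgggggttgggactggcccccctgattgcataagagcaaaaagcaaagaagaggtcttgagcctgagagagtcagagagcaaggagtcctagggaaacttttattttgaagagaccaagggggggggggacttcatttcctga
The Pdgfd window held TATAAA once, starting 160 bases before that later transcript start and also before the RefSeq gene start at 6168363. That motif was found in 12.4% of all 32841 windows of this length. The Fgf7 window held CCAAT once, 53 bases before the start, and 33.9% of all windows held it. None of the 5 motifs was found in the Pdgfra window. The windows held 3 (Pdgfd), 6 (Fgf7) and 4 (Pdgfra) CpG dinucleotides, against a median of 6 over all windows. Those of Fgf2 and of the pair of Pdgfa starts held 20, 19 and 28, and those of Pdgfc and Fgfr2 held 3 and 2.

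The first comparison asks how young and old MSCs differ. All 10 members passed the test between Young and Old, 4 higher and 6 lower in Young, with a median log2 fold change of -0.75 and a median absolute change of 1.05. The background is broad: 85.7% of all genes tested were called, 41.6% higher and 44.1% lower in Young, with a median absolute change of 0.60. In 9 of the 10 members the Young and Old libraries did not overlap, as in 73.9% of all genes. The share of members called is thus near that of all genes, and it is the size and direction of each that is described. The receptor Pdgfra and, among the ligands, Pdgfc were higher in Young, as was Fgfr1, whereas the means of Pdgfb, Pdgfd, Fgf7 and Fgf2 were 2.52 to 7.07 times higher in Old.

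**Figure D1:**
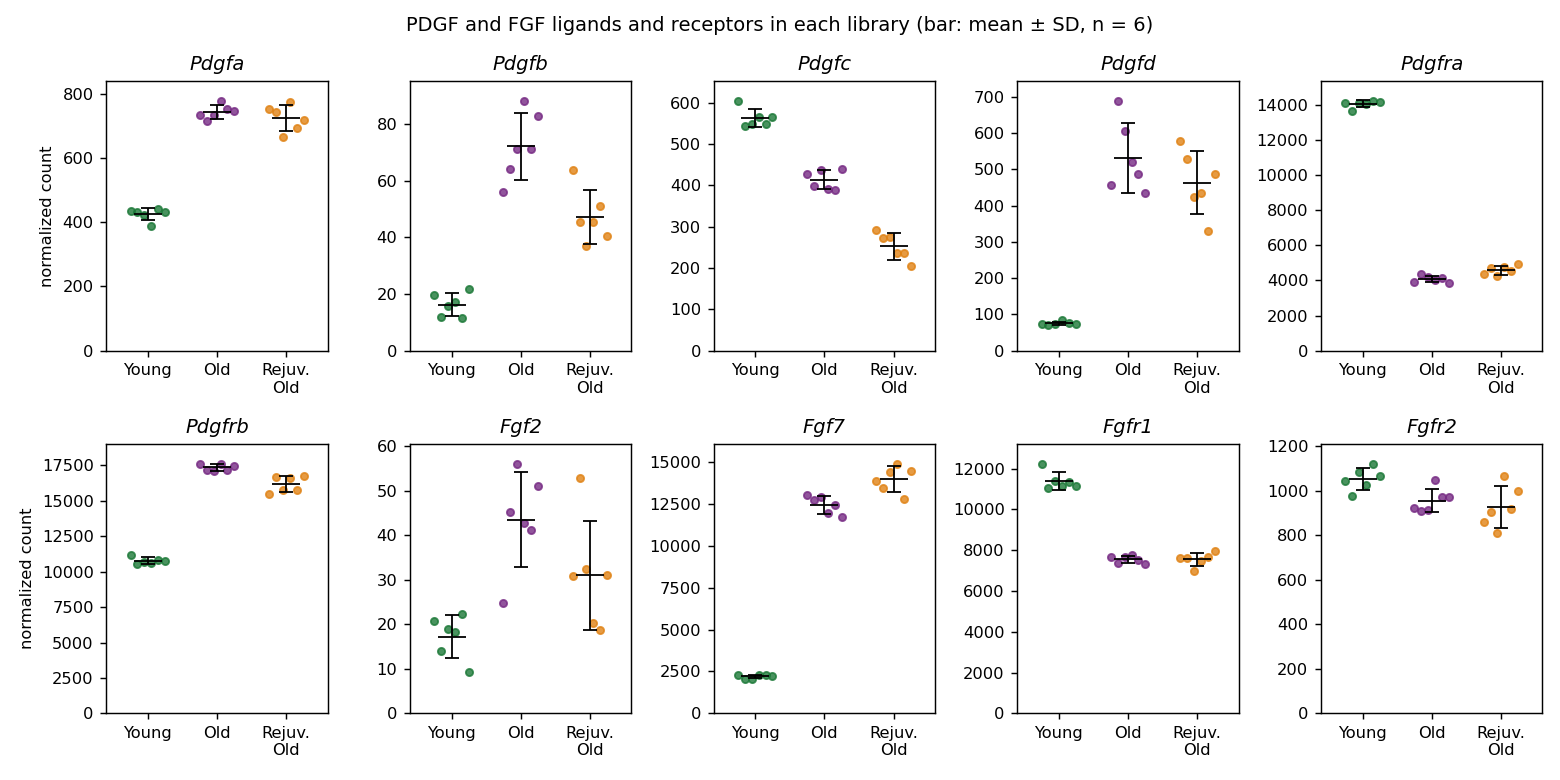
Normalized counts (y axis, from 0) of the 10 members in each of the 18 libraries, with points for libraries and bars for the mean ± SD of the 6 libraries of a group. Pdgfra stood at 13667 to 14211 in Young and at 3857 to 4926 elsewhere, Fgf7 at 2047 to 2311 in Young and at 11696 to 14893 elsewhere, and Pdgfc was lowest in Rejuvenated Old.

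Pdgfra, the PDGF receptor alpha and a common surface marker of MSCs, had a normalized count of 13667 to 14211 in Young, with a median of 14120. In Old it ran from 3857 to 4347, with a median of 4077. Every Young library thus lay above every Old one, and the log2 fold change was 1.79 (SE 0.04, adjusted p = 2.10e-22), or 3.45 times. Pdgfrb, the receptor beta that marks pericytes and stromal cells, went the other way. It ran from 10554 to 11196 in Young (median 10721) and from 17132 to 17612 in Old (median 17325), and its log2 fold change was -0.69 (SE 0.03, adjusted p = 8.44e-17). Fgfr1, the main FGF receptor of mesenchymal cells, ran from 11027 to 12235 in Young (median 11235) and from 7317 to 7742 in Old (median 7585). Its groups did not overlap either, and its log2 fold change was 0.59 (SE 0.03, adjusted p = 3.35e-14). Fgfr2 stood at 974 to 1121 in Young (median 1054) and at 909 to 1046 in Old (median 947). These groups overlapped, and the change of 0.14 (SE 0.06, adjusted p = 0.0259) was the smallest of the 10. The call was lost when Young replicate 3 or 5 or Old replicate 1, 2 or 3 was left out, with adjusted p between 0.0502 and 0.0636. Fgfr2 lies on chromosome 7, where the median of 1031 other genes was itself 0.61 higher in Young on the log2 scale. Set against that median Fgfr2 was lower in Young, at -0.47. Whether the shift of the chromosome had a part in the value was not tested.

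Among the PDGF ligands the D chain differed most. Pdgfd, which acts through Pdgfrb and is secreted in a latent form, ran from 70.7 to 84.0 in Young (median 73.9) and from 434 to 688 in Old (median 502). The mean was 7.07 times higher in Old, with a log2 fold change of -2.79 (SE 0.12, adjusted p = 3.37e-16). Pdgfb, the B chain that binds both receptors, was scarce, at 11.7 to 21.6 in Young (median 16.4) and 55.9 to 88.2 in Old (median 71.2). Its log2 fold change was -2.10 (SE 0.17, adjusted p = 6.49e-11), from 11 to 21 reads per Young library. Macrophages are a known source of the B chain, and the summed level of the macrophage markers also differed between Young and Old. Their part in the Pdgfb value was not tested. Pdgfa, a ligand of Pdgfra, was lower in Young, at a mean of 425 ± 19.0 against 743 ± 21.0 (SD, n = 6 each), and its log2 fold change was -0.81 in the limma fit (SE 0.04, adjusted p = 4.97e-14). Of its exon bases, 26.07% are shared with an antisense gene, 6330403L08Rik, and as the strand setting of the counting is not stated, reads of the latter may be in the value. Pdgfc was the only PDGF ligand of the 4 that was higher in Young, at 544 to 604 (median 556) against 389 to 440 in Old (median 413). That difference came to 0.44 (SE 0.07, adjusted p = 4.11e-06).

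Per kilobase of exon, Fgf7 was the most abundant of the 6 ligands in all 3 groups. Its normalized count, not divided by length, ran from 2047 to 2311 in Young (median 2254) and from 11696 to 13030 in Old (median 12566). The log2 fold change of -2.50 (SE 0.04, adjusted p = 5.50e-24) corresponded to a mean 5.65 times higher in Old. Fgf2, whose protein maintains the growth of cultured MSCs, was among the scarcest transcripts. It ran from 9.27 to 22.4 in Young (median 18.6), from 9 to 21 reads per library, and from 24.7 to 56.0 in Old (median 44.0). The groups did not overlap, and the change was -1.29 (SE 0.25, adjusted p = 4.35e-05). Fgf2 shares 640 exon bases, or 9.44% of its length, with the antisense gene Nudt6. Nudt6 stood at means of 253, 288 and 242 in Young, Old and Rejuvenated Old, and without a known strand setting reads of Nudt6 in the Fgf2 value cannot be told apart.

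**Figure D2:**
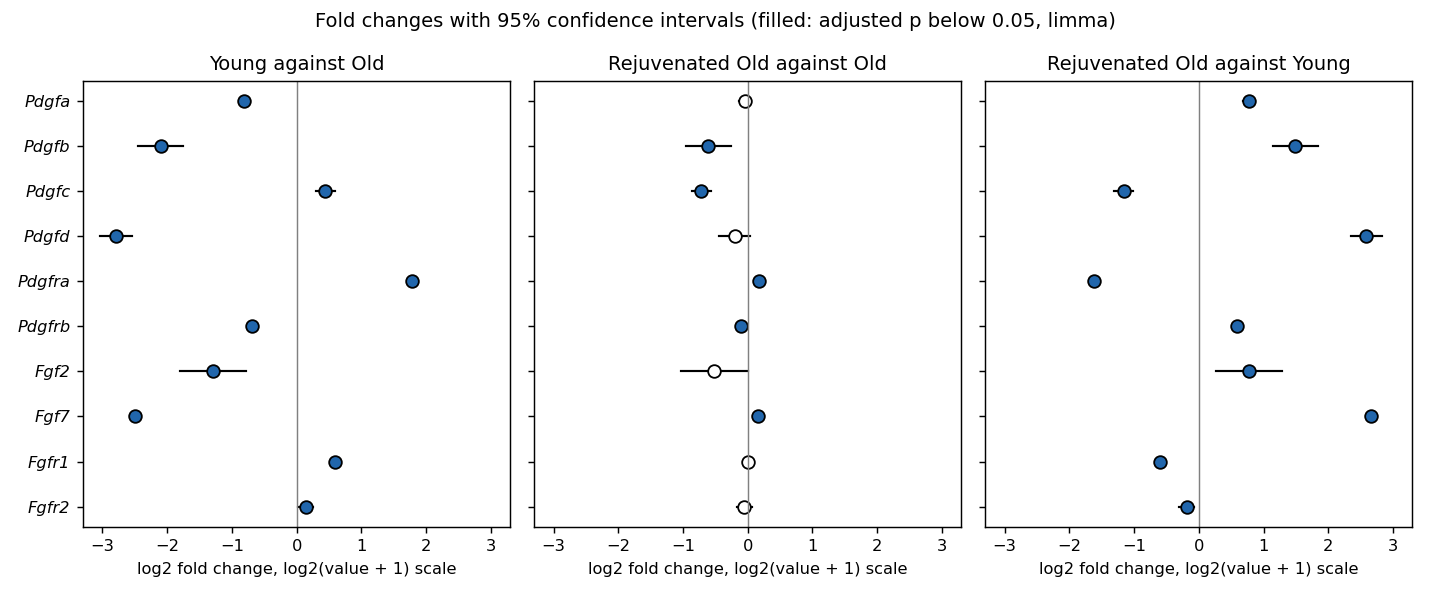
Log2 fold changes on the log2(value + 1) scale (x axis) of the 10 members (y axis) in the 3 comparisons, with lines for 95% confidence intervals and filled points where the adjusted p was below 0.05. All 10 points are filled for Young against Old, and 5 are filled for Rejuvenated Old against Old, none of which lies further from 0 than Pdgfc at -0.72.

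The second comparison asks what 7 days opposite young cells changed in old cells. Of the 10 members, 5 passed the test between Rejuvenated Old and Old, 2 higher and 3 lower, against a background of 41.6% of all genes called, 21.0% higher and 20.6% lower. The share is close to the background and is not a result about the members. The libraries of the 2 groups did not overlap for Pdgfc and Pdgfrb, against 22.0% of all genes. The median absolute change of the members was 0.17 on the log2 scale, beside 0.15 over all genes. The A and D chains, Fgf2 and both FGF receptors did not pass.

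Pdgfc fell most. It ran from 204 to 291 in Rejuvenated Old (median 255), below all Old libraries at 389 to 440, with a log2 fold change of -0.72 (SE 0.07, adjusted p = 3.21e-08), and its mean fell by 38.9%. Since Pdgfc was higher in Young than in Old, the co-cultured cells lay further from Young than the Old cells did, with a log2 fold change of -1.16 against Young (adjusted p = 3.62e-13). Pdgfb ran from 37.1 to 63.8 (median 45.3) after co-culture, and 5 of the 6 libraries lay below the lowest Old one. Its log2 fold change of -0.61 (SE 0.17, adjusted p = 0.00601) was toward the Young level. The summed macrophage markers overlapped between Old and Rejuvenated Old, at medians of 14773 and 13654, and of the 10 markers 1 rose and 1 fell between these groups. Pdgfrb ran from 15480 to 16736 (median 16185), a drop of 0.10 (log2 fold change -0.10, SE 0.03, adjusted p = 0.00381) below non-overlapping Old libraries. Less the median of 386 other genes of its chromosome, Pdgfrb stood at -0.06 in this comparison and at -0.45 for Young against Old.

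The rises were small. Pdgfra ran from 4263 to 4926 in Rejuvenated Old (median 4626), 4 of the 6 libraries above the highest Old one, with a log2 fold change of 0.17 (SE 0.04, adjusted p = 0.000498). This was toward Young, but the mean of 4587 remained far below the 14051 of Young. Fgf7 ran from 12774 to 14893 (median 14116), 5 of the 6 above the highest Old library, with a log2 fold change of 0.17 (SE 0.04, adjusted p = 0.00216), away from Young. Among the members that did not pass, Fgfr1 had the narrowest interval, from -0.07 to 0.07 around a log2 fold change of -0.00 (adjusted p = 0.994), at means of 7546 in Rejuvenated Old and 7544 in Old. The intervals were -0.13 to 0.05 for Pdgfa (adjusted p = 0.542), -0.17 to 0.07 for Fgfr2 (adjusted p = 0.497) and -0.45 to 0.04 for Pdgfd (adjusted p = 0.176). Fgf2 was the least certain, with a log2 fold change of -0.51 (SE 0.25, adjusted p = 0.101) and Rejuvenated Old values from 18.6 to 52.9 (median 31.0). It passed when Old replicate 1 was left out (-0.66, adjusted p = 0.0338) or Rejuvenated Old replicate 2 (-0.68, adjusted p = 0.0264).

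Compared directly with Young, all 10 members again differed in Rejuvenated Old, 6 higher and 4 lower, where 85.6% of all genes were called, 44.1% higher and 41.5% lower. The groups did not overlap in 8 members and in 70.5% of all genes, Fgf2 and Fgfr2 being the exceptions. The largest differences were again in Fgf7, at a log2 fold change of 2.66 (SE 0.04, adjusted p = 1.84e-24), and Pdgfd, at 2.59 (SE 0.12, adjusted p = 1.48e-15). Pdgfra was lower by 3.06 times (log2 fold change -1.62, adjusted p = 1.45e-21). Pdgfb and Pdgfa were higher by 1.49 and 0.77 on the same scale, Pdgfrb by 0.59 and Fgf2 by 0.78 (adjusted p = 0.00568). Under quantile normalization the Fgf2 difference was 0.43 and did not pass (adjusted p = 0.0983). Fgfr1 differed by -0.59 and Fgfr2 by -0.19, the latter with an adjusted p of 0.00346 and overlapping groups. Less the chromosome 7 median of -0.56, Fgfr2 stood at 0.37. These comparisons share the Young, Old or Rejuvenated Old libraries and are not independent of each other.

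Because a size factor cancels in a ratio within a library, the balance of related members was compared as well. The ratio of Pdgfra to Pdgfrb counts, the receptors with and without affinity for the A chain, ran from 1.26 to 1.33 in Young (median 1.31) and from 0.221 to 0.254 in Old (median 0.235). In Rejuvenated Old it ran from 0.271 to 0.294 (median 0.284), so that no library of any group overlapped with another group. The mean log2 ratio was 2.48 higher in Young than in Old and 0.27 higher in Rejuvenated Old than in Old, each with p = 0.0021645 in a two-sided exact permutation test, the smallest p that 924 splits of 6 against 6 can give (adjusted p = 0.00325 over 9 tests). It was lower in Rejuvenated Old than in Young by a log2 difference of -2.20 (exact adjusted p = 0.00325). The shift with co-culture was thus in the direction of Young and small beside the distance from it.

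The ratio of Fgfr1 to Fgfr2 counts had medians of 10.7 in Young and 7.92 in Old, and of 8.39 after co-culture. Its log2 value was 0.45 higher in Young than in Old (exact adjusted p = 0.00325, no overlap), while Rejuvenated Old and Old differed by 0.05 (exact adjusted p = 0.407) and overlapped. Against Young the Rejuvenated Old ratio was lower, with a log2 difference of -0.40 (exact adjusted p = 0.00325). The ratio of Fgf2 to Fgf7 was below 0.01 in every library. Its log2 value was 1.15 higher in Young than in Old (exact p = 0.00649, adjusted p = 0.00835), and the groups overlapped. Between Rejuvenated Old and Old the log2 difference was -0.70 (exact p = 0.0498, adjusted p = 0.0560), and it passed without Old replicate 1 (-0.86, exact adjusted p = 0.0195) or without Rejuvenated Old replicate 2 (-0.88, exact adjusted p = 0.0195). Between Rejuvenated Old and Young it was -1.85 (exact adjusted p = 0.00325).

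**Figure D3:**
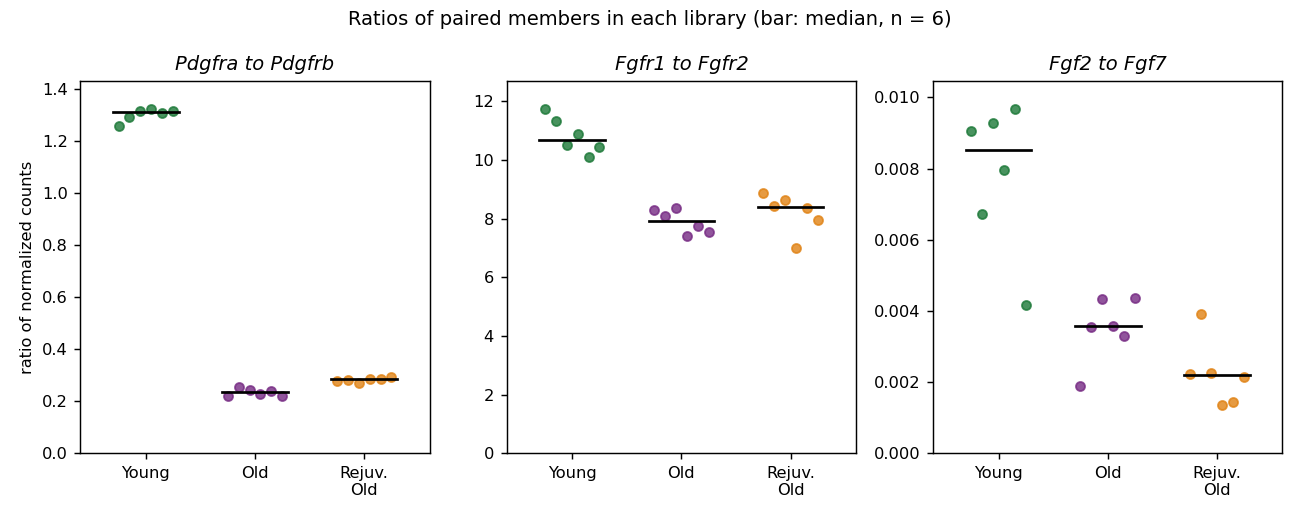
Ratios of normalized counts (y axes, from 0) of Pdgfra to Pdgfrb, Fgfr1 to Fgfr2 and Fgf2 to Fgf7 in each library, with points for the 6 libraries of a group and bars for the group median. The Pdgfra to Pdgfrb ratio separates all 3 groups, at medians of 1.31, 0.235 and 0.284.

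In RefSeq's GRCm38.p6 annotation the genes lie at separate places: Pdgfa on chromosome 5 (138976014 to 139000792), Pdgfb on chromosome 15 (79995865 to 80024614), Pdgfc on chromosome 3 (81036416 to 81214040), Pdgfd on chromosome 9 (6168363 to 6534284), Pdgfra on chromosome 5 (75151322 to 75198206), Pdgfrb on chromosome 18 (61045127 to 61085067), Fgf2 on chromosome 3 (37348477 to 37410106), Fgf7 on chromosome 2 (126034658 to 126091185), Fgfr1 on chromosome 8 (25518759 to 25575718) and Fgfr2 on chromosome 7 (130162451 to 130266808). The table holds 1 value per gene and library, so splice forms such as those of Fgfr2 are not separated.

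Levels of different genes were compared per kilobase of exon. In Young the order of mean levels was Pdgfrb at 1967 normalized counts per kilobase, Pdgfra at 1402, Fgfr1 at 1152, Fgf7 at 679, Pdgfa at 136, Pdgfc at 111, Fgfr2 at 102, Pdgfd at 23.8, Pdgfb at 3.91 and Fgf2 at 2.54. Of the neighbours in this order, Pdgfc and Fgfr2, and Pdgfb and Fgf2, overlapped between libraries. The 3 receptors Pdgfrb, Pdgfra and Fgfr1 thus came first in Young, ahead of every ligand. In Old the order was led by a ligand, Fgf7 at 3833 per kilobase, ahead of Pdgfrb at 3168, Fgfr1 at 764, Pdgfra at 407, Pdgfa at 238, Pdgfd at 169, Fgfr2 at 92.6, Pdgfc at 81.3, Pdgfb at 17.4 and Fgf2 at 6.41. Pdgfra moved from the second to the fourth place and Fgf7 from the fourth to the first. Rejuvenated Old kept the order of Old, from Fgf7 at 4301 per kilobase and Pdgfrb at 2952 down to Pdgfb at 11.4 and Fgf2 at 4.57. Where the longest transcript replaced the union of exons as the length, Fgfr1 came first in Young, ahead of Pdgfra and then Pdgfrb, which overlapped. Fgfr2 then stood ahead of Pdgfa and Pdgfc in Young. In Old and Rejuvenated Old, Pdgfd and Fgfr2 changed places.

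**Figure D4:**
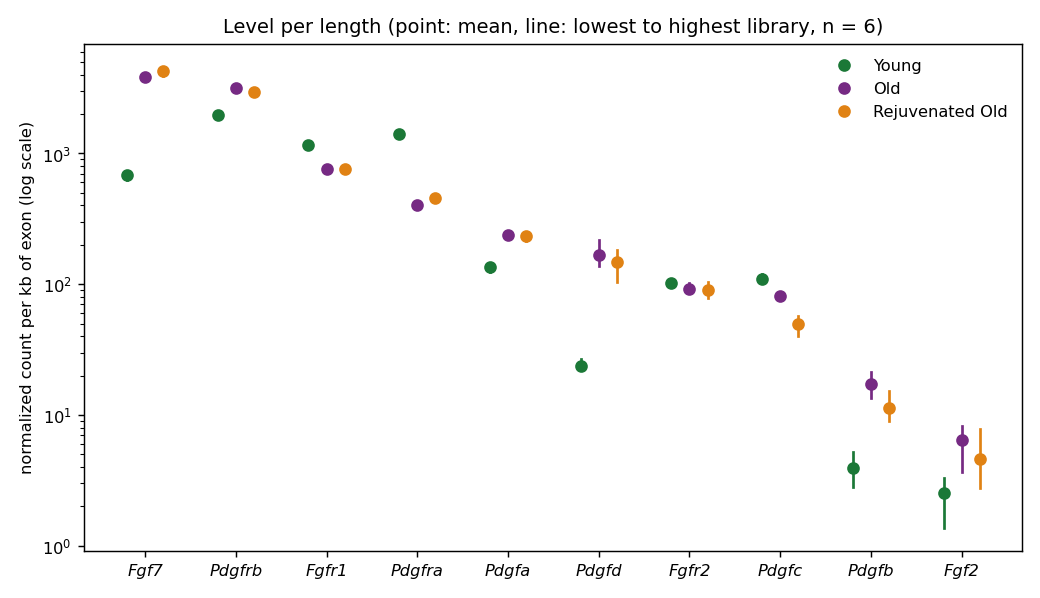
Normalized counts per kilobase of exon (y axis, log scale) of the 10 members, in the order they had in Old, with points for the mean and lines from the lowest to the highest of the 6 libraries of each group. Fgf7 stood at 3833 in Old, 4301 in Rejuvenated Old and 679 in Young, while Fgf2 was below 10 in all 3 groups.

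Other genes of the pathways were read from lists written by hand. Of 20 other FGF ligands, 6 were abundant enough to test. Between Young and Old, 5 of them were higher and 1 was lower in Young (median log2 fold change 2.77). Of these, Fgf14, Fgf18 and Fgf21 reached the filter mean of 10 only through their Young libraries. Their means were 323, 22.6 and 43.1 in Young and 0.661, 4.07 and 4.66 in Old. In Rejuvenated Old they were 0.333, 7.83 and 7.72. The count and the median thus follow in part from the filter. Fgf10, the closest relative of Fgf7 and like it a ligand of the epithelial form of Fgfr2, was opposite to Fgf7 between Young and Old. With co-culture Fgf10 rose, as Fgf7 did. It ran from 435 to 487 in Young (median 451), from 8.03 to 20.5 in Old (median 16.5) and from 28.3 to 50.5 in Rejuvenated Old (median 31.1). Its log2 fold change was 4.83 for Young against Old (adjusted p = 2.40e-17) and 1.12 for Rejuvenated Old against Old (adjusted p = 2.31e-05), with no overlap between the groups. Fgf14, an intracellular FGF that is not secreted, ran from 272 to 367 in Young (median 324) and was at 0 to 2 reads in Old and 0 to 1 in Rejuvenated Old. It is a transcript of the Young cells that was not detectable above the floor of 3 reads in the co-cultured cells. Fgf1 was lower in Young (-1.32, adjusted p = 2.18e-05), and Fgf18 rose with co-culture (0.90, adjusted p = 0.0119) from 1 to 7 reads per Old library. After co-culture 2 of the 6 rose and 0 fell in limma's test.

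Of 10 other receptors, co-receptors and carriers 6 were tested, and 2 were higher and 4 lower in Young (median -1.03). The receptor-like Pdgfrl, which has no kinase domain, had a median of 3246 in Young against 113 in Old, and of 143 after co-culture (log2 fold change 4.84 for Young against Old and 0.30 for Rejuvenated Old against Old, adjusted p = 1.90e-24 and 0.00241). Neuropilin 1 (Nrp1), a co-receptor for several growth factors, was lower in Young by -1.83 and fell with co-culture by 0.25 (log2 fold change -0.25, adjusted p = 1.39e-05). Fgfr3 was lower in Young (-2.01, adjusted p = 2.56e-07) and Fgfbp3, a carrier of FGFs, higher (0.82). After co-culture 2 rose and 2 fell (median -0.13), the others being Fgfrl1 at 0.25 and Lrp1 at -0.43.

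PDGF-C and PDGF-D need cleavage of their CUB domain before they bind a receptor, and all 7 proteases listed for this or for propeptide removal were tested, 4 higher and 3 lower in Young (median 0.08). Plat, the tissue plasminogen activator that cleaves PDGF-C, followed the pattern of Pdgfc itself: its medians were 4660 in Young and 1919 in Old, and 1096 after co-culture (log2 fold change 1.28 for Young against Old and -0.80 for Rejuvenated Old against Old, adjusted p = 3.65e-16 and 7.82e-11). Plau, the urokinase that can cleave PDGF-D, was opposite to Pdgfd, at medians of 2531 in Young and 683 in Old, and 897 after co-culture (1.91 and 0.40, adjusted p = 4.75e-22 and 3.89e-08). St14 (matriptase) and Pcsk5 were at 1 to 3 and 0 to 1 reads per Young library and at medians of 21.0 and 32.4 in Old. After co-culture 2 proteases rose and 3 fell (median -0.23), Pcsk6 at 0.76 and Furin at -0.23 among them.

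The genes that relay the signal inside the cell moved in no common direction. Of 19 such genes, 7 were higher and 8 lower in Young (median -0.02), among them the FGF receptor adaptor Frs2 at -1.76, Map2k1 (MEK1) at 0.40 and Hras at 0.37. After co-culture 3 rose and 6 fell (median -0.02), between Map2k1 at 0.29 and Ptpn11 at -0.21, with Frs3 at 0.23 and Plcg1 at -0.19.

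The feedback inhibitors were mostly higher in Old. Of 14 tested, 3 were higher and 11 lower in Young (median -0.53), where 44.1% of all genes were lower. After co-culture 0 rose and 10 fell in limma's test (median -0.23), where 20.6% of all genes fell. The list was written by hand with earlier results of these data known, so these shares only describe it. Whether they exceed those of all genes was not tested. The Sprouty genes, induced by FGF signalling and inhibitors of it, were split: Spry1 ran from 31.6 to 45.6 in Young (median 34.4) and from 2361 to 2722 in Old (median 2403), whereas Spry2 ran from 5534 to 6075 in Young (median 5822) and from 445 to 528 in Old (median 478). Their log2 fold changes were -6.06 and 3.60 (adjusted p = 1.40e-26 and 6.51e-23). Il17rd (Sef), which restrains FGF receptors, had a median of 511 in Young and 1369 in Old, and of 726 after co-culture, a log2 fold change of -0.96 with co-culture (adjusted p = 1.70e-11). Cblb, a ubiquitin ligase for receptor kinases, had medians of 395, 2948 and 1859 (-2.93 for Young against Old and -0.69 with co-culture, adjusted p = 5.73e-23 and 8.45e-10). Spred3 was higher in Young at 0.88.

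Of 14 transcriptional targets, 7 were higher and 6 lower in Young (median 0.30), and after co-culture 6 rose and 5 fell (median 0.10). The PEA3 factors, which report FGF activity in many tissues, differed between Young and Old in opposite directions: Etv1 and Etv5 were lower in Young, at -4.00 and -2.15 (adjusted p = 1.15e-20 and 1.02e-18), and Etv4 was higher, at 0.56 (adjusted p = 0.000337). With co-culture Etv4 fell from a median of 230 to 103 (log2 fold change -1.05, adjusted p = 7.74e-07), away from the 344 of Young. Etv1 fell as well (-0.44, adjusted p = 0.000974), toward Young, while Etv5 did not pass (-0.08, adjusted p = 0.373). Egr3, an immediate early gene, fell from 59.5 to 20.5 (-1.41, adjusted p = 7.17e-07), away from the 69.3 of Young. Myc rose from a median of 1051 in Old to 2249 in Rejuvenated Old (1.06, adjusted p = 8.61e-12), toward the 3288 of Young, and Ier3 rose from 656 to 1156 (0.81, adjusted p = 4.26e-09). Ier3 and Ier2 were both higher in Young, at 2.05.

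**Figure D5:**
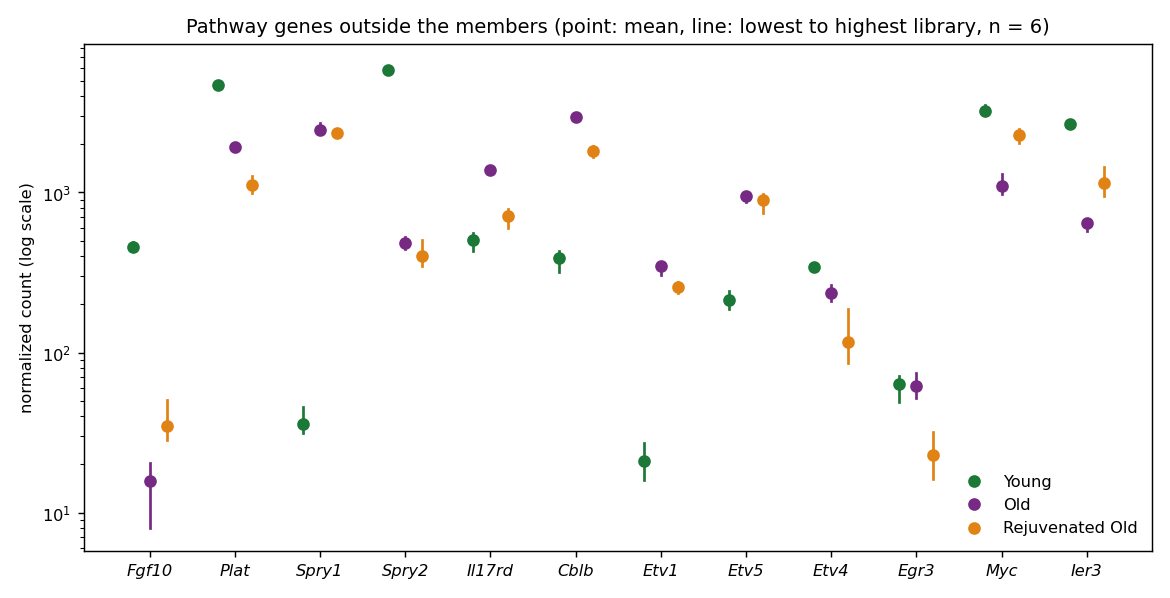
Normalized counts (y axis, log scale) of 12 pathway genes that are not members, with points for the mean and lines from the lowest to the highest of the 6 libraries of each group. Fgf10 was lower in Old than in Young, opposite to Fgf7, and Spry1 and Spry2 differed between Young and Old in opposite directions, at medians of 34.4 and 5822 in Young and 2403 and 478 in Old.

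For each member the genes whose log2 values were most like it over the 18 libraries were found by Pearson's r, which reflects above all the difference between the 3 groups, since the libraries of a group share it. Fgf7 was most like Ctgf and Efnb1 (r = 0.999 each), Pdgfra most like Igf1r (0.998) and Meis2 (0.997), and Pdgfrb most like Fzd1 and Cx3cl1 (0.997 each). Pdgfd stood with Agfg1 (0.996) and Col12a1 (0.995), Pdgfa with Adgrg1 (0.993) and Gas2l1 (0.992), Fgfr1 with Terf2 (0.994) and Scrib (0.991), and Pdgfc with Nkain1 (0.990) and Capn6 (0.983). Likeness was lower for Pdgfb, with Irf5 and Crocc2 (0.972 each), and Fgf2, with Tns1 (0.892) and Smg5 (0.889), and lowest for Fgfr2, with Fzd4 (0.802) and Usp20 (0.796).

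Markers of other cells were read beside the members. In Young the macrophage markers Ptprc, Adgre1, Itgam and Tyrobp were at or under 3 reads in every library, Ptprc and Adgre1 at 0. Of the 10 markers tested 9 were lower and 1 was higher in Young. Ptprc, Adgre1, Itgam, Tyrobp and Fcer1g reached the filter mean of 10 only through Old and Rejuvenated Old. The count of lower markers thus follows in part from the filter. The summed level of 10 pericyte and smooth muscle markers, cells in which Pdgfrb is typical, ran from 38473 to 40413 in Young, from 107703 to 118824 in Old and from 108463 to 124151 in Rejuvenated Old. Most of the sum was Acta2 (smooth muscle actin), at medians of 38033, 102743 and 104462 in the same order. Of 8 of them tested, 6 were lower in Young, and 1 rose and 1 fell with co-culture. The 2 higher in Young were the pericyte markers Cspg4 (2.86, adjusted p = 4.54e-11) and Mcam (0.61, adjusted p = 0.00149). Rgs5, among the lower ones, had a mean of 1.71 in Young and reached the filter mean of 10 only through Old and Rejuvenated Old. The sum was higher in Old and Rejuvenated Old than in Young, as were the means of Pdgfrb, Pdgfd, Fgf7, Pdgfa, Pdgfb and Fgf2. Between Old and Rejuvenated Old the sums overlapped, while Pdgfrb and Pdgfb fell and Fgf7 rose. The part of these markers in the values of the members was not tested. Of 9 endothelial markers the sum was at most 239 in any library, with Tie1 and Cldn5 at the floor in all 3 groups. Of the 4 tested, 3 were higher and 1 lower in Young, and 1 fell with co-culture. Kdr and Esam had means of 85.7 and 29.6 in Young and 9.12 and 7.20 in Old. They reached the filter mean of 10 only through Young, so the count of higher markers follows in part from the filter. Megakaryocyte and platelet markers, a textbook source of PDGF-A and PDGF-B, summed to 725 to 1154 over all libraries. The defining Gp9 and Gp6 were at the floor in every group, and most of the sum was Itga2b and Gp1bb. Pf4, however, was at 0 in Young and at means of 103 in Old and 232 in Rejuvenated Old. It rose with co-culture (1.15, adjusted p = 3.35e-07 in limma's fit), while Ppbp fell (-1.15, adjusted p = 0.00440). The part of such cells in the values of the members was not tested. Of the 5 tested, 1 was higher and 4 were lower in Young, and 2 rose and 1 fell with co-culture. Pf4, Ppbp and Treml1 reached the filter mean of 10 only through Old and Rejuvenated Old. The count of markers lower in Young thus follows in part from the filter. Epithelial markers, of the cells that respond to Fgf7, summed to at most 31.3, with Epcam and Cdh1 at the floor throughout.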

How the data were processed

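RNA from the 18 MSC cultures was sequenced from stranded mRNA libraries (TruSeq). According to the study's methods and the submitters' processing notes, the authors aligned reads to mm10 with HISAT2, used StringTie and featureCounts, and normalized with DESeq2. Versions, annotation, strand setting and filters are not given in the sources used here. What the authors deposited is a normalized signal, the reads counted on a gene divided by the size factor of that library, with replicates not pooled. Steps between values gave back whole reads for 100% of the values, within 0.01 of a read. Size factors assume that most genes do not change, and 85.7% of genes were called between Young and Old, so folds are relative to these factors.

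The members and lists were chosen with earlier results of these data known. Tests ran on the log2(value + 1) scale in limma 3.58.1 (R 4.3.3), all 3 groups in 1 fit with a variance trend, over 14353 genes whose mean reached 10. A gene was called at a Benjamini-Hochberg adjusted p under 0.05 over all these genes. Fold changes are on this scale and understate those of scarce genes. Ratios were compared with two-sided exact permutation tests, adjusted over 9 tests. Exon lengths came from GENCODE M21, and positions and upstream sequences from RefSeq GRCm38.p6, in which 25275 of 27179 gene numbers were found. Named genes were all members; from each pathway list the 2 called genes that rose most and the 2 that fell most in Young against Old and Rejuvenated Old against Old; the 2 genes most like each member; and defining markers. Some genes that this rule names are not reported here.

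Replicates of a group differed beyond sampling noise in all 45 pairs (chi-square per degree of freedom 2.60 to 23.7). Alternatives were edgeR 4.0.16 and DESeq2 1.42.0 on the recovered reads, quantile normalization, pseudocounts of 0.5 and 10, other filters on low values, a 2-group fit, replicate blocks, chromosome medians, transcript lengths and leaving out each library. The fits were also run on simulated counts in which few genes were changed. Those runs cannot speak to a comparison in which most genes were called.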

Additional observations from a re-analysis of the deposited data

Results flagged for a closer look

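A library was taken to stand apart when its gap to the nearest library exceeded Dixon's 95% critical value for 6 samples. Of 39 sets of 6 values, 6 had such a library, where chance alone flags about 1 in 20. They were Pdgfa in Young replicate 4 (387.7, the next at 421.3), Pdgfc in Young replicate 1 (604.0, next 566.3), Pdgfd in Young replicate 4 (84.0, next 75.7), Pdgfra in Young replicate 2 (13667, next 14060), Fgfr1 in Young replicate 1 (12235, next 11387) and the log2 ratio of Fgf2 to Fgf7 in Old replicate 1 (-9.04, next -8.24). For the 5 single genes the direction and the call of Young against Old were the same without the library. Without Old replicate 1 the log2 ratio of Fgf2 to Fgf7 passed the test between Rejuvenated Old and Old, at -0.86. No difference between contrasts was tested.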

How the results depend on the processing

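The counts of members and of all genes called stayed within 1.5 times under every alternative run, and Pdgfa, Pdgfb, Pdgfc, Pdgfd, Pdgfra, Pdgfrb, Fgf7 and Fgfr1 kept their direction where called and their side of the threshold. Less its chromosome median, Fgfr2 turned to -0.47 for Young against Old and to 0.37 for Rejuvenated Old against Young. Less its own chromosome median, Pdgfrb stood at -0.45 for Young against Old, -0.06 for Rejuvenated Old against Old and 0.39 for Rejuvenated Old against Young. The Fgfr2 call against Old was lost without Young replicate 3 or 5 or Old replicate 1, 2 or 3 and at an adjusted p of 0.01. Fgf2 lost its call against Young under quantile normalization (0.43, adjusted p = 0.0983), and the cause was not tested. The log2 ratio of Fgf2 to Fgf7 between Rejuvenated Old and Old passed at a pseudocount of 10 (-0.57, exact adjusted p = 0.0463) and ran from -0.88 to -0.57 without 1 replicate. Same-numbered libraries showed no joint deviation (correlations of -0.15 to 0.07), and no label ties a number to an animal, culture or day. With a replicate block 38 of 39 results kept their call, and the ratio of Fgf2 to Fgf7 between Young and Old (1.15) had an exact adjusted p of 0.0804. Depth limits Fgf2 and Pdgfb, with 9 to 21 and 11 to 21 reads per Young library.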
